A study of Mus musculus with 6 samples.

Results

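Transcripts of the p53 family and of 7 proteins that act on p53 were compared between sorted male primordial germ cells (PGCs) labelled Fancg-/- and wild-type (WT) PGCs. The 10 genes were Trp53, Trp63, Trp73, Mdm4, Ccdc106, Cop1, Usp7, Hipk2, Trp53bp1 and Kat5. They were taken by gene symbol from the 23837 rows of the array that could be named, and each of the 10 matched 1 row. The series held 3 samples of og2.fvb.fancg -/- genotype and 3 of og2.fvb.fancg +/+ genotype, all from E13.5 male embryos. Both groups carried OG2, an EGFP reporter under the distal Oct3/4 enhancer, and PGCs were sorted by its fluorescence. The mutant allele holds a Pgk-hygromycin cassette and is not restricted to germ cells, so that the gonadal cells around the PGCs carry it as well. Each sample was a pool of 10000 PGCs from at least 5 embryos.

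p53, the product of Trp53, is a transcription factor that DNA damage stabilises and that switches on genes of arrest, repair and cell death. In unstressed cells it is kept low by MDM2, a ubiquitin ligase, and MDM4, its relative, which covers the activation domain of p53. COP1 is a further ubiquitin ligase with p53 among its targets, and CCDC106 is a coiled-coil protein that binds p53 and promotes its degradation, as seen in human cells. USP7 removes ubiquitin from p53 and from MDM2, while HIPK2, 53BP1 (Trp53bp1) and the acetyltransferase KAT5 (TIP60) favour p53 activity or act beside it at DNA breaks. p63 and p73, the relatives of p53, are made from separate promoters with or without the activation domain, and p63 is known as the guardian of the oocyte and is also found in fetal male germ cells.

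The promoters of the 3 members with the lowest differences (Ccdc106, Cop1 and Hipk2), and of Trp53 itself, are given from RefSeq on GRCm38.p6, from 250 bases before to 50 bases after the start. RefSeq promoters were held for 9 of the 10 members, the exception being Trp63. Capitals mark matches on either strand to the letters CCAAT, which many promoters share, to GGGCGG, a motif that SP factors know, to CCGGAAG, a motif of ETS factors, to TATAAA, the core promoter motif, to CACGTG, the E-box of MYC and related proteins, to TTTGAA, part of a TCF motif, or to the p53 half-site, and neighbouring GGGCGG matches may overlap. For Hipk2 the most upstream of 2 listed starts is shown.
Ccdc106 (chr7:5055902-5056201, + strand): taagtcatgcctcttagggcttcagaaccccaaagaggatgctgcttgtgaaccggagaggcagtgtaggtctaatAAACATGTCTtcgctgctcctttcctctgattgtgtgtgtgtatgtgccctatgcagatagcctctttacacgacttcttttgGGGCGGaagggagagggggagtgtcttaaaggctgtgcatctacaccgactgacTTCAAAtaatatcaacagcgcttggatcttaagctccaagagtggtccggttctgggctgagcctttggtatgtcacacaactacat
Cop1 (chr1:159231950-159232249, + strand): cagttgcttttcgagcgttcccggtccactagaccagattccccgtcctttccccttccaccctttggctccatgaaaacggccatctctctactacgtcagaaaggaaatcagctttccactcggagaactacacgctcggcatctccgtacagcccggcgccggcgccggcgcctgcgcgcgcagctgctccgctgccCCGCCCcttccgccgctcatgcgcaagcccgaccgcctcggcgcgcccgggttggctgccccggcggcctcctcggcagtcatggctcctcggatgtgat
Hipk2 (chr6:38876141-38876440, - strand): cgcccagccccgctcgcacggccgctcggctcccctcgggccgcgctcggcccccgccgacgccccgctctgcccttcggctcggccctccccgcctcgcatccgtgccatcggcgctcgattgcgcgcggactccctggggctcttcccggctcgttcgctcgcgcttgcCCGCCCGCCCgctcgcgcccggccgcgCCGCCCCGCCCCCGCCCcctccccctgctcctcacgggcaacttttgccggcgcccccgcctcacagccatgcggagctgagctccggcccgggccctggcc
Trp53 (chr11:69580109-69580408, + strand): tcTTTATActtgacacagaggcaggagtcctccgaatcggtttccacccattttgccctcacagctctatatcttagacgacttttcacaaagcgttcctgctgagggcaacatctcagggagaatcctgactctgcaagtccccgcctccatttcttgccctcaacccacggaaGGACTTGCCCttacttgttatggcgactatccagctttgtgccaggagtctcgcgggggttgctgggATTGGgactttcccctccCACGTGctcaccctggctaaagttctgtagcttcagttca

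The Ccdc106 promoter held a p53 half-site that began 174 bases before the start, a GGGCGG at 91 bases and a TTTGAA on the other strand at 37 bases. Among 32851 promoters of the same length, 8.36% held a p53 half-site, 35.7% a GGGCGG and 17.9% a TTTGAA. The Trp53 promoter also held a p53 half-site, 75 bases before the start, and no other listed promoter of a member did. The promoters of Cop1 and of Hipk2 held 34 and 48 CpG pairs, against a median of 7 over all promoters, and Ccdc106 held 7. A match is a string of letters and not evidence of binding. For Trp73, Mdm4, Hipk2 and Kat5 RefSeq listed 2 starts each, and the array gave 1 value per gene, so that transcripts from separate starts could not be told apart.

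Signals are given on a log2 scale, where a difference of 1 is a change of 2-fold, and differences are those of limma as Fancg-/- minus WT with 95% intervals. Array medians lay between 4.68 and 4.75 and correlations between any pair of arrays between 0.989 and 0.994. Fancg itself had 6.38, 6.65 and 6.87 in the samples labelled Fancg-/-, against 6.07, 5.95 and 6.37 in WT samples. Its difference was 0.51 (interval 0.14 to 0.87, adjusted p = 0.27 from limma), with every labelled array above every WT array. The Fancg signal was therefore higher, and not lower, under the mutant label. The place of its probes relative to the cassette was not stated, so that this signal does not check the genotype and the groups are named as labelled. Over all genes none passed an adjusted p of 0.05 (0% called, smallest adjusted p 0.11), and 2956 had an unadjusted p under 0.05. With 3 samples in each group the smallest two-sided p of an exact permutation test is 0.1.

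Of the 10 members, none was called over all genes. At the level of an unadjusted p under 0.05, 0 of 10 were higher, where 6.23% of all genes were, and 3 of 10 were lower, where 6.17% were. The 3 arrays of one group all lay above or below the 3 of the other in 5 members, 2 of them higher (9.45% of all genes) and 3 lower (8.45% of all genes) in PGCs labelled Fancg-/-. The median difference of the members was -0.05, against 0.01 over all genes. The 3 lower members were Ccdc106, with a difference of -1.05, Hipk2 with -0.34 and Cop1 with -0.29, and those of the other 7 lay between -0.07 and 0.15.

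**Figure D1:**
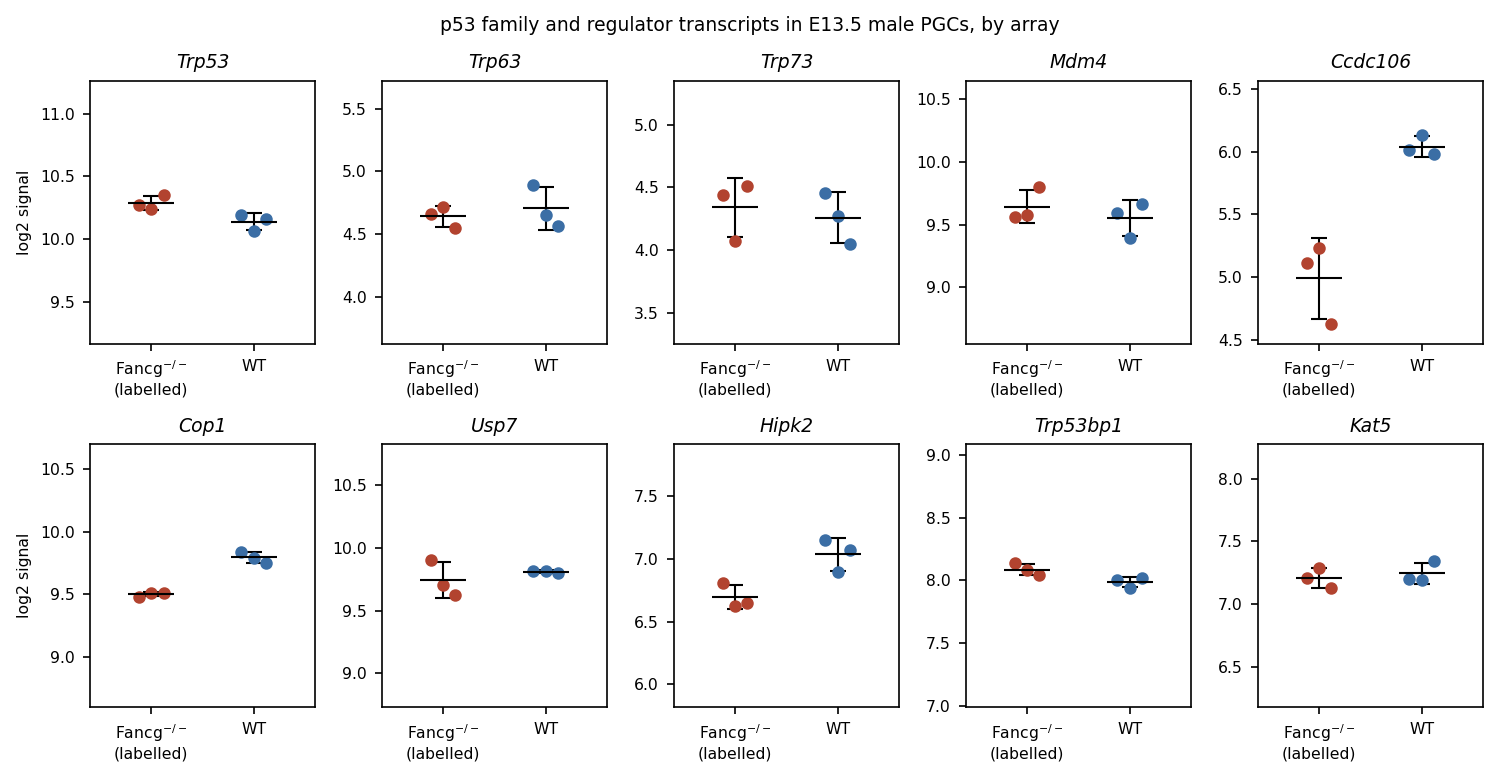
Log2 signal (vertical axis) of each member in the 3 arrays labelled Fancg-/- (left in each panel, red) and the 3 WT arrays (right, blue), with the mean and SD as bars. Every panel spans the same height, and the Ccdc106 arrays at 4.62 to 5.23 lie apart from the WT arrays at 5.98 to 6.14.

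Among the family genes, Trp53 had log2 signals of 10.27, 10.24 and 10.35 in PGCs labelled Fancg-/-, against 10.19, 10.06 and 10.16 in WT PGCs. Each labelled array lay above each WT array, by a margin of 0.05 between the nearest pair. The difference was 0.15 (interval -0.05 to 0.35, adjusted p = 0.54 from limma), or 1.11-fold, and did not pass. The spread within groups was small for this gene, with an SD of 0.06 in labelled and 0.07 in WT PGCs.

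Trp63 had 4.66, 4.71 and 4.55 in PGCs labelled Fancg-/-, against 4.89, 4.65 and 4.57 in WT PGCs. The groups overlapped and the difference was -0.06 (interval -0.32 to 0.19, adjusted p = 0.87 from limma). WT replicate 1 was the highest array, and without it the difference was 0.03. Trp73, whose full-length product shares many targets with p53, had 4.43, 4.08 and 4.51 in labelled PGCs, against 4.45, 4.27 and 4.05 in WT PGCs. Its groups overlapped almost entirely, with a difference of 0.08 (interval -0.26 to 0.43, adjusted p = 0.87 from limma) that turned to -0.02 without WT replicate 3 and to -0.0037 without Fancg-/- replicate 3. Both genes gave signals close to the array medians, and whether they stood above background was not determined.

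Of the 10 members, Ccdc106 had the lowest difference. Its log2 signals were 5.12, 5.23 and 4.62 in PGCs labelled Fancg-/-, against 6.01, 6.14 and 5.98 in WT PGCs. All labelled arrays lay below all WT arrays, with a gap of 0.75 between the nearest pair, and replicate 3 was the lowest of the labelled samples. Its signal of 4.62 was below the array medians of 4.68 to 4.75. Whether the labelled signals of this gene stood above background was not determined. The means were 4.99 ± 0.32 in labelled PGCs and 6.04 ± 0.08 in WT PGCs (SD, n = 3 each), a difference of -1.05 (standard error 0.16, interval -1.42 to -0.68), or 2.07-fold lower. It ranked 24 from the lowest difference and 31 by p among 23837 genes, and did not pass the adjustment over all of them (adjusted p = 0.14 from limma). The exact two-sided permutation p was 0.1, the smallest possible, as it also was for Trp53, Cop1, Hipk2 and Trp53bp1. Leaving out each sample in turn gave differences of -1.17 to -0.87, the smallest without Fancg-/- replicate 3.

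Cop1 differed by less, but its arrays were the tightest of all members. Log2 signals were 9.48, 9.51 and 9.51 in PGCs labelled Fancg-/-, against 9.84, 9.79 and 9.75 in WT PGCs. The groups did not overlap, with a gap of 0.24, and 1.21% of genes had as small a spread within groups. The means were 9.50 ± 0.02 in labelled PGCs and 9.79 ± 0.04 in WT PGCs (SD, n = 3 each). The difference of -0.29 (standard error 0.08, interval -0.48 to -0.11), or 1.23-fold lower, did not pass (adjusted p = 0.23 from limma).

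Mdm4 had 9.56, 9.57 and 9.80 in PGCs labelled Fancg-/-, against 9.60, 9.39 and 9.66 in WT PGCs. The groups overlapped and the difference was 0.09 (interval -0.17 to 0.35, adjusted p = 0.80 from limma). Leaving out 1 sample at a time gave 0.01 to 0.15, the lowest without WT replicate 2 and the highest without WT replicate 3. Mdm2, its partner and itself a p53 target, had 9.12, 9.20 and 9.22 in labelled PGCs, against 8.95, 9.04 and 9.01 in WT PGCs. Here the groups did not overlap, and the difference of 0.18 (interval -0.01 to 0.38) did not pass (adjusted p = 0.43 from limma).

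Usp7, which acts on both p53 and MDM2, had 9.90, 9.70 and 9.63 in PGCs labelled Fancg-/-, against 9.81, 9.82 and 9.80 in WT PGCs. The labelled arrays spread on both sides of the WT arrays, with an SD of 0.14 in labelled and 0.01 in WT PGCs. The difference was -0.07 (interval -0.29 to 0.16, adjusted p = 0.84 from limma), and ranged from -0.15 to -0.01 when single samples were left out, the lowest being without Fancg-/- replicate 1 and the highest without Fancg-/- replicate 3.

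**Figure D2:**
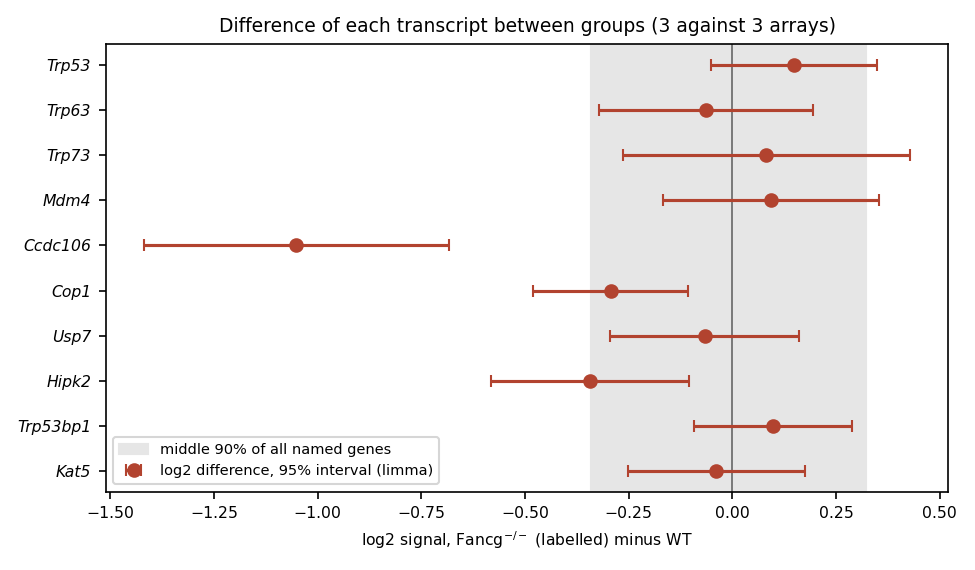
Difference in log2 signal, Fancg-/- (labelled) minus WT, of each member (points) with its 95% interval from limma (bars), beside the middle 90% of all named genes (grey, -0.34 to 0.32). The intervals of Ccdc106 (-1.42 to -0.68), Cop1 and Hipk2 lie below 0 and those of the other 7 members include it.

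Among the proteins that favour p53 activity, Hipk2, a nuclear kinase that phosphorylates p53 after severe damage, had the lower signal in labelled PGCs. Its log2 signals were 6.80, 6.63 and 6.65 in PGCs labelled Fancg-/-, against 7.15, 6.89 and 7.07 in WT PGCs. The groups did not overlap, with a gap of 0.09. The means were 6.69 ± 0.10 in labelled PGCs and 7.04 ± 0.13 in WT PGCs (SD, n = 3 each), and the difference of -0.34 (standard error 0.10, interval -0.58 to -0.10), or 1.27-fold lower, did not pass (adjusted p = 0.26 from limma). The 3 lower members were genes of a pair of proteins that restrain p53 and of a kinase that activates it.

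Trp53bp1, which binds chromatin around double-strand breaks, had 8.14, 8.08 and 8.04 in PGCs labelled Fancg-/-, against 8.00, 7.94 and 8.02 in WT PGCs. Each labelled array lay above each WT array, but the nearest pair differed by 0.02 only, and the difference was 0.10 (interval -0.09 to 0.29, adjusted p = 0.68 from limma). Kat5 had 7.21, 7.29 and 7.13 in labelled PGCs, against 7.20, 7.19 and 7.34 in WT PGCs. Its groups overlapped, and the difference of -0.04 (interval -0.25 to 0.17, adjusted p = 0.91 from limma) turned to 0.01 without WT replicate 3 and to 5.0e-04 without Fancg-/- replicate 3.

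In RefSeq, Ccdc106, Trp63, Trp73 and Mdm4 overlap predicted genes that were not among the named rows, Gm15510 in the case of Ccdc106. Of overlapping genes with a value, Tbxas1 lies over Hipk2, Map1a and Tubgcp4 over Trp53bp1, and Scarna3a over Cop1. Whether probes fall in the shared stretches was not stated. The differences were -0.16 for Tbxas1, 0.01 for Map1a, -0.07 for Tubgcp4 and -0.24 for Scarna3a, with unadjusted p from 0.066 to 0.92 in limma. The genes on either side of Ccdc106 were Zfp580 and U2af2. Zfp580 had a difference of -0.26 (unadjusted p = 0.025, adjusted p = 0.33 from limma). U2af2 had 0.09 (unadjusted p = 0.41, adjusted p = 0.79 from limma). These genes were looked up after the values of the members had been seen.

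Genes of the wider pathway were taken as 7 lists of regulators and partners, which together held 91 measured genes and none of the members. None was called over all genes. Their median difference was -0.02. At the level of an unadjusted p under 0.05, 8 of the 91 were higher and 5 were lower, where 6.23% and 6.17% of all genes were. The same shares of all genes apply to the counts of each list that follow. The counts over the 91 genes were unstable. They were 11 higher and 6 lower without Fancg-/- replicate 1, and 9 and 5 without WT replicate 1. Without Fancg-/- replicate 3 they were 3 higher and 2 lower, and without WT replicate 3 they were 3 and 3. Without WT replicate 2 they were 5 and 3, and without Fancg-/- replicate 2 they were 6 and 3. With somatic marker signal as a covariate they were 2 higher and 0 lower. The median standard error there was 0.20, against 0.10 in the fit without the covariate. Of 13 other ubiquitin ligases and deubiquitinases of p53, 1 was lower at that level, the large ligase gene Huwe1 with a difference of -0.23 (adjusted p = 0.33 from limma), and none was without Fancg-/- replicate 2 or 3 or WT replicate 2 or 3. Of 21 other binding partners and chromatin regulators, 4 were higher and none lower. There were 5 higher without WT replicate 1, 2 without Fancg-/- replicate 3, WT replicate 2 or WT replicate 3, and 0 with the covariate. The 4 included Trp53inp1, a nuclear cofactor that is also a p53 target, with 0.54 (adjusted p = 0.20), the methyltransferase gene Smyd2 with 0.32 (adjusted p = 0.26) and Pml, the organiser of nuclear bodies, with 0.37 (adjusted p = 0.32). This list had a median of 0.0029.

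Of 16 kinases and phosphatases that act on p53, 3 were lower and 1 was higher at an unadjusted p under 0.05, with a median of 0.01. Only 1 was lower without Fancg-/- replicate 2 or 3, the count of higher genes moved between 0 and 2 as single samples were left out, and with the covariate both counts were 0. The damage kinase genes Prkdc and Atm had differences of -0.36 and -0.26, and Dyrk2, a p53 kinase related to Hipk2, had -0.53 with groups that overlapped (adjusted p from limma of 0.22, 0.32 and 0.35). Casein kinase 2, which phosphorylates CCDC106, was measured by its 3 subunit genes. Csnk2a1 differed by -0.05, Csnk2a2 by 0.04 and Csnk2b by 0.05, and the groups overlapped in each.

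Of 8 partners of the COP1 ligase, 2 were higher and none lower, with a median of 0.11. These were Trib2, an adaptor that brings substrates to COP1, with 0.33 (adjusted p = 0.26 from limma) and Dda1, of the CUL4 ligase, with 0.33 (adjusted p = 0.32 from limma), and 1 was higher without Fancg-/- replicate 3 or WT replicate 3. Of 7 measured genes of the ARF and ribosomal protein arm that inhibits MDM2, 1 was higher, Rps27l with 0.43 (adjusted p = 0.32 from limma), which is also a p53 target, and none was without Fancg-/- replicate 3 or WT replicate 2 or 3. Rpl11 of that list was not found among the named rows. Among 17 other subunits of the KAT5 complex none reached that level, with a median of -0.07. Of 9 measured partners of 53BP1 at DNA breaks 1 was lower, Mdc1, a scaffold at breaks, with -0.34 (adjusted p = 0.25 from limma).

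**Figure D3:**
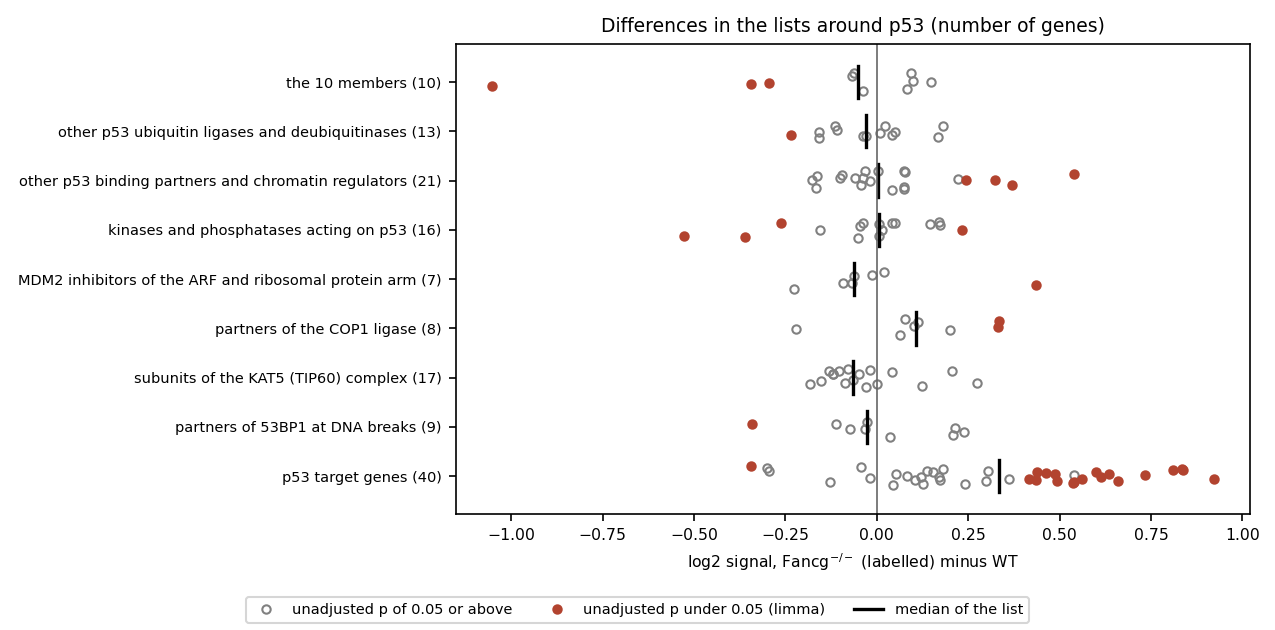
Difference in log2 signal, Fancg-/- (labelled) minus WT (horizontal axis), of each gene of the 10 members, of 7 lists of regulators and partners and of p53 target genes, with filled points where the unadjusted p was under 0.05 and a bar at each list's median. The medians of the regulator lists lie between -0.07 and 0.11 and that of the 40 targets at 0.33.

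Genes that p53 switches on were held as a list of 40. At an unadjusted p under 0.05, 18 targets had higher (6.23% of all genes) and 1 had lower signals (6.17%) in PGCs labelled Fancg-/-. None was called over all genes. The median over the list was 0.33, against 0.01 over all genes. The smallest p-values were those of Plk2 with 0.92, the mTORC1 inhibitor gene Ddit4 with 0.84 and Sesn2 with 0.66 (adjusted p from limma of 0.11, 0.14 and 0.15). The 1 lower target was Sesn1, with -0.34 (adjusted p = 0.21 from limma). The list shares Trp73 with the members and Mdm2, Ppm1d, Rps27l and Trp53inp1 with the regulator lists, and it was written with earlier results of these arrays known. In a fit with somatic marker signal as a covariate 31 of 40 targets lay above 0, against 34 without it, and 2 were higher at that level. There the median difference of the targets was 0.17, with a median standard error of 0.25, against 0.33 with 0.13 in the fit without the covariate.

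Several marker lists of gonadal cell types differed between the labels. Relative to the mean of all samples, 14 germ cell markers averaged 0.02 to 0.11 in PGCs labelled Fancg-/-, against -0.11 to -0.02 in WT PGCs, and their own signals were among the highest on the arrays, with a median at the 96.0 percentile. This list was split, with 8 markers above and 6 below 0. Tfap2c, Nanos3 and Nanog had the highest differences of the list (0.56, 0.44 and 0.40). Those below 0 were Dnd1 with -0.03, Mael with -0.13, and Pou5f1, Ddx4, Dazl and Dppa3 with -0.02, -0.0041, -0.10 and -0.11. In 4 markers the labelled arrays all lay above the WT arrays (9.45% of all genes), and in 1, Dazl, all below (8.45%). The 7 measured Leydig cell markers averaged -0.92 to -0.46 in labelled PGCs, against 0.38 to 0.88 in WT PGCs, and 6 of them did not overlap. The 14 Sertoli cell markers averaged -0.42 to -0.02 in labelled PGCs, against -0.02 to 0.43 in WT PGCs, ranges that met without overlapping. All 14 had differences below 0, with a median of -0.39. At an unadjusted p under 0.05, 2 were lower (6.17% of all genes), and 1 to 6 were as single samples were left out. The ranges of the 12 stromal markers, -0.26 to -0.03 in labelled and -0.16 to 0.36 in WT PGCs, overlapped. Even so, 11 stromal markers had differences below 0 and 1 above, with a median of -0.26. At the same level 5 of them were lower, and 1 to 8 were as single samples were left out. The ranges of the 9 macrophage and 8 erythroid markers overlapped as well, with medians of 0.0027 and 0.08. The 10 endothelial markers averaged -0.04 to 0.42 in labelled PGCs, against -0.32 to 0.11 in WT PGCs, ranges that overlapped, yet all 10 had differences above 0. Their median was 0.34, near the 0.33 of the p53 targets, and 5 were higher at an unadjusted p under 0.05 (6.23% of all genes). This count was 2 without WT replicate 3 and 3 without Fancg-/- replicate 2 or 3. It was 6 without Fancg-/- replicate 1 and 7 without WT replicate 1. Most signals of this list were low, with a median at the 41.4 percentile. The exception among the 5 was Pecam1, at the 97.1 percentile, with a difference of 0.38 and groups that overlapped. The covariate described next does not hold this list. In the fit with it, 3 endothelial markers lay above and 7 below 0, with a median of -0.19 and a median standard error of 0.23. The part of endothelial RNA in the results was not tested. In pooled cells, fewer cells of a type and less RNA per cell cannot be told apart.

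With the averaged signal of the Sertoli, Leydig and stromal lists added to the model, the difference of Ccdc106 was -1.22 (unadjusted p = 0.0089 from limma), that of Cop1 -0.38 (unadjusted p = 0.063) and that of Hipk2 -0.42 (unadjusted p = 0.10). In the same fit Trp63 had -0.43 (unadjusted p = 0.050), Trp73 had -0.02 and Trp53 had 0.13. These lists themselves differed between the labels, so that genotype and cell makeup cannot be told apart in 6 samples. The part of other cell types in the members' signals was not tested further.

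**Figure D4:**
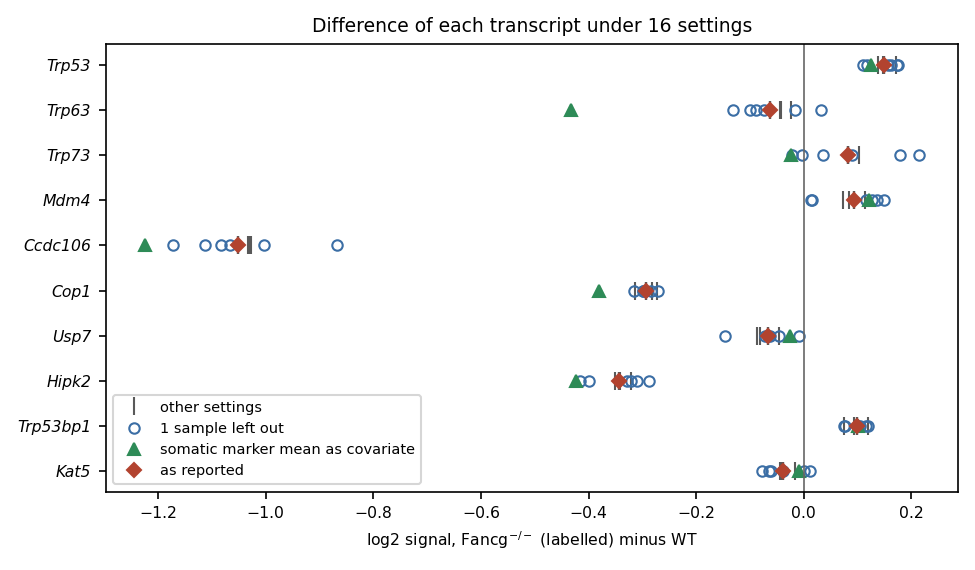
Difference in log2 signal, Fancg-/- (labelled) minus WT, of each member as reported (diamonds), with 1 sample left out (circles), with somatic marker signal as a covariate (triangles) and under the other settings (ticks). Ccdc106 lies between -1.22 and -0.87 under all 15 alternatives, whereas Trp63, Trp73 and Kat5 fall on both sides of 0.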

How the data were processed

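Biotinylated cDNA from sorted PGCs was hybridised to Affymetrix Mouse Gene 2.0 ST arrays of 1 colour, and the authors deposited RMA-normalized log2 signals, 1 row per Entrez gene. The submitters' processing notes also name Partek. Neither versions nor a genome build is given in the sources used here. Names came from RefSeq (GRCm38.p6) for 23712 of 24479 rows and from the platform annotation for 125 more, and 642 rows without a name were left out.

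Differences were tested with limma 3.58.1 (lmFit, eBayes) in R 4.3.3, with no block. P-values were adjusted by Benjamini-Hochberg over every named row, and 0.05 was the limit for a call. The fit was first tested on simulated data with known changes. These were larger in size than the differences of most members, so that smaller differences were not covered. RMA pulls dim signals together, which can understate differences of dim genes, and precision is limited by the 6 arrays. Samples are separate pools of embryos. The members and lists were chosen with earlier results of these data known, Ccdc106 and many p53 targets among them. Named in the text are all members, up to 3 genes per list with the smallest unadjusted p under 0.05, Fancg, Mdm2 and the casein kinase 2 genes. Pou5f1, Ddx4, Dazl, Dppa3, Dnd1, Mael, Pecam1, Sesn1 and the overlapping and neighbouring genes were named after their values were seen.

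Alternatives were an intensity trend with a robust prior, the ordinary variance of each gene, array weights, quantile normalization, equal medians, a filter on the lowest 25% of genes, all rows, the replicate number as a block, a somatic covariate and leaving out each sample.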

Additional observations from a re-analysis of the deposited data

How the results depend on the processing

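Over 15 alternatives no member was called over all genes, and Trp53, Mdm4, Ccdc106, Cop1, Usp7, Hipk2 and Trp53bp1 kept their direction. Ccdc106 had an unadjusted p under 0.05 in 15 of 15 alternatives (adjusted p from 0.070 to 0.80 in limma), and Cop1 and Hipk2 in 14 of 15 each, the exception being the somatic covariate. With it 1 member was below 0.05, instead of 3, and 1408 genes, instead of 2956. The differences of Cop1 and Hipk2 were then -0.38 and -0.42, against -0.29 and -0.34 without it. Standard errors were larger in that fit, with a median over the 91 genes of the regulator lists of 0.20, against 0.10. With the ordinary variance of each gene there were 5 such members, Trp53 and Trp53bp1 in addition, and with an intensity trend Trp53 was added (unadjusted p = 0.023). The direction turned for Trp63 without WT replicate 1 (0.032), for Trp73 with the covariate (-0.023), without WT replicate 3 (-0.022) and without Fancg-/- replicate 3 (-0.0037), and for Kat5 without WT replicate 3 (0.011) and without Fancg-/- replicate 3 (5.0e-04). Leaving out single samples gave -0.13 to 0.032 for Trp63, -0.022 to 0.21 for Trp73 and -0.078 to 0.011 for Kat5. The cause was not tested. Leaving out single samples, the median difference of the members ranged from -0.06 to -0.0064, 3 members were below 0.05 each time, 2079 to 3189 genes were, and 0 to 3 genes were called, the 3 without WT replicate 1. Deviations of same-numbered samples from their group means correlated at -0.143, -0.11 and 0.03. Whether same-numbered samples shared a litter or a batch was not stated. These correlations cannot decide it, as deviations were taken within groups of 3. With the replicate number as a block 3 members and 2480 genes had an unadjusted p under 0.05. Dim signals, such as those of Trp63 and Trp73 and of Ccdc106 in labelled PGCs, limit what these arrays can show.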

Other observations

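Genes of epithelia that depend on p63 and of multiciliated cells that depend on p73 were held as a list of 7. Of these, 2 had higher signals at an unadjusted p under 0.05 (6.23% of all genes) and none had lower ones (6.17%). Their median was 0.24. Leaving out single samples gave 1 to 3 higher genes. With the somatic covariate there were 0, with a median of 0.42 and a median standard error of 0.27. Signals were low here too, with a median at the 41.4 percentile. Dsp, which encodes the desmosome protein desmoplakin, had means of 6.36 ± 0.23 in PGCs labelled Fancg-/- and 5.49 ± 0.24 in WT PGCs (SD, n = 3 each), a difference of 0.87 (adjusted p = 0.15 from limma). Perp, a desmosomal target of p53 and p63 that is also on the list of p53 targets, had 0.54 with groups that overlapped (adjusted p = 0.35 from limma). Trp63 and Trp73 themselves had -0.06 and 0.08.

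Among 14 germ cell markers, 4 were higher at an unadjusted p under 0.05 and none lower, where 6.23% and 6.17% of all genes were. The 4 included Tfap2c, Nanog and Nanos3 (adjusted p from limma of 0.26, 0.27 and 0.33). The differences of 6 of the 14 lay below 0, the lowest being Mael with -0.13. Leaving out single samples gave 2 to 5 higher markers, with 2 without Fancg-/- replicate 2 or 3 or WT replicate 3, and the somatic covariate gave 0. None was called over all genes.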
